A study of Homo sapiens with 2 samples.

Results

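A set of 37 genes known to respond to low oxygen, other than the enzymes of glycolysis, was read in outgrowth cultures of human embryonic stem cells grown with or without the inhibitor SB-431542. The genes were listed by symbol, with earlier results of these data known. Every probe set that the array annotation assigns to a listed gene alone was read. Of the 37 listed genes, 35 had such a probe set, out of 19775 genes that the array reads in this way. CA9 and SLC16A3 had none, so their RNA was not analysed here, and they enter only the promoter counts. The cells were the line HUES9 at passage 32, differentiated for 10 days as embryoid bodies, which are suspended cell clusters, then moved to fibronectin-coated dishes with chemically defined medium and passaged as monolayers to outgrowth passage 5. SB-431542 blocks the kinase receptors through which TGF-β, activin and nodal signal. SB-OG cultures had 10 µM of it as embryoid bodies and 1 µM as outgrowths. Control-OG cultures had 0.01% of the solvent DMSO. Per the design text, 3 samples of each culture were mixed, and there was 1 array for each mixture, so no value has a replicate, an SD or a p-value, and each difference describes these 2 arrays.

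Hypoxia-inducible factors, HIFs, are pairs of an α subunit and ARNT. In oxygenated cells, prolyl hydroxylases mark the α subunit for destruction by the VHL ubiquitin ligase. When oxygen is short the α subunit persists, and the pair binds DNA at a short core, ACGTG or GCGTG, near genes for glucose uptake, blood vessel growth, acid export, mitochondrial removal and collagen hydroxylation. Since oxygen acts mainly on the protein of the α subunit, its mRNA does not report HIF activity. Many of these genes also respond to growth factors, nutrient stress or the cell type they are in. The labels give no oxygen level for either culture.

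Values are linear intensities in arbitrary units, and signals of different probe sets are not set against each other. Where a gene had several probe sets, the brightest over both arrays is quoted first. The background level, the 95th percentile of 217 probe sets for gene families not expected in these cells, was 27.2 on SB-OG and 32.1 on control-OG. Differences are log2 values of SB-OG less those of control-OG, after readings below background were raised to it. Differences given by separate probe sets of the same gene spread with an SD of 0.47 over 4953 genes. This SD describes disagreement between probe sets on the same arrays. It holds no variation between cultures or arrays, so the error of a difference cannot be estimated here. The cell makeup also differed. In SB-OG all 10 skeletal muscle markers were higher by 2-fold or more, with a summed intensity of 51856 in SB-OG and 391 in control-OG. Of 10 fibroblast and stromal markers, 8 were lower by 2-fold or more in SB-OG and 1 higher, with sums of 47719 in SB-OG and 108866 in control-OG. Epithelial markers summed to 495 in SB-OG and 16562 in control-OG, with 4 of 8 above background and EPCAM not among them. KRT8, KRT18 and KRT19 were lower in SB-OG by 2-fold or more, while CDH1 was at 82.8 in SB-OG and 26.9 in control-OG, at least 2.58-fold higher. Endothelial markers summed to 116 in SB-OG and 1404 in control-OG, with 3 of 8 above background and CDH5 and VWF below it on both arrays. Of 6 pluripotency markers with a probe set, 2 were above background. SOX2, which is also a neural gene, was at 147 in SB-OG and 14.2 in control-OG, at least 4.59-fold higher, though another SOX2 probe set gave -0.07. NANOG was at 5.06 in SB-OG and 4.15 in control-OG. In a mixed culture, fewer cells of a type and less RNA per cell cannot be told apart, and the part of cell makeup in the differences below was not tested.

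Signal exceeded background on both arrays for 34 of the 35 hypoxia-response genes, and on SB-OG alone for PPFIA4. Measured on the arrays as deposited, 11 of the 35 were lower in SB-OG by 2-fold or more, where 13.0% of 12557 genes above background were, and 3 were higher by as much, where 12.4% of all genes were. The lower genes were ANKRD37, SLC2A1, BHLHE40, NDRG1, ERO1A, VEGFA, TMEM45A, DDIT4, P4HA1, EPAS1 and CA12, and the higher ones were PPFIA4, STC1 and KDM3A. At 3-fold, 7 genes were lower and 1 was higher, beside 6.36% and 6.32% of all genes. The median difference was -0.26 over the 35 genes and -0.022 over all genes. In SB-OG relative to control-OG, 24 of the 35 differences were negative (68.6%), against 51.2% over all genes.

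The counts depend on how the arrays are scaled to each other, while the share of lower genes was above that of all genes under each of these scalings. The members were listed with earlier results of these data known, so this excess is no independent support. Each control scaling adds a constant to every gene, so it counts the same differences again at a shifted threshold. Scaling on control transcripts takes equal amounts to have been added to both samples, which no source used here states. Control transcripts added at hybridisation read lower on SB-OG, and scaling on them moved every gene up by 0.47, so that 7 of 35 members were 2-fold lower, against 7.25% of all genes, and 5 (14.3%) were higher, against 24.1%. Of the 24 negative differences, 7 turned positive. Poly-A control transcripts, which are added to the RNA before labelling, moved every gene up by 1.20, so that 4 members (11.4%) were 2-fold lower, against 3.52% of all genes, and 16 (45.7%) were higher, against 59.7%. Of the 24 negative differences, 15 then turned positive, among them those of HIF1A, STC2, BNIP3, MXI1 and, of the genes 2-fold lower as deposited, EPAS1 and CA12. Among all genes with a 2-fold difference, SB-OG had the higher value in 48.8% as deposited, 76.8% after the first scaling and 94.4% after the second. The members' median stayed 0.23 below that of all genes under each, as a common shift must leave it. Under every scaling tried, SB-OG values were lower by 2-fold or more for ANKRD37, SLC2A1, BHLHE40 and NDRG1, and higher for PPFIA4 and STC1.

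**Figure D1:**
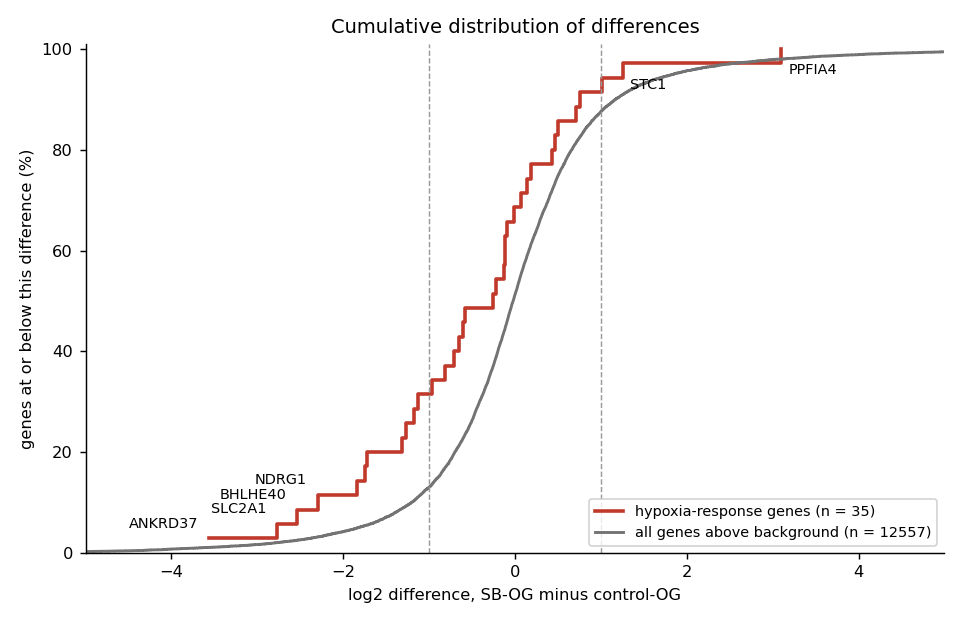
Cumulative share of genes (vertical axis, %) at or below each log2 difference, SB-OG minus control-OG, on arrays as deposited, for 35 hypoxia-response genes and for 12557 genes above background, between -5 and 5. The hypoxia-response curve lies above the other on the left, where 11 of the 35 genes are past the dashed 2-fold line. With poly-A control scaling both curves move right by 1.20. Past the right-hand line are then 16 members and past the left-hand one 4, beside 59.7% and 3.52% of all genes.

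Upstream sequences are shown for 7 genes at least 2-fold apart that represent the patterns in the data: 5 of the lower genes that hold the HIF core, and the higher genes PPFIA4 and KDM3A, which hold it too. Each is the 250 bases before the RefSeq start site in build GRCh38.p14, 5′ to 3′ on the gene's strand, with each ACGTG or GCGTG on either strand in capitals. The windows are chr4:185396591-185396840 on the + strand for ANKRD37, chr3:4979187-4979436 (+) for BHLHE40, chr10:72273674-72273923 (+) for DDIT4, chr10:73096867-73097116 (-) for P4HA1, chr14:52695559-52695808 (-) for ERO1A, chr1:203026241-203026490 (+) for PPFIA4 and chr2:86441121-86441370 (+) for KDM3A.
ANKRD37: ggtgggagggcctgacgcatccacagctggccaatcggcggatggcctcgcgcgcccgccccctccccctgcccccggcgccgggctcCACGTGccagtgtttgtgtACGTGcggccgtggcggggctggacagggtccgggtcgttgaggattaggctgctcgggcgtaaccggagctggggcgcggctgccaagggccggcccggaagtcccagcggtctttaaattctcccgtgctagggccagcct
BHLHE40: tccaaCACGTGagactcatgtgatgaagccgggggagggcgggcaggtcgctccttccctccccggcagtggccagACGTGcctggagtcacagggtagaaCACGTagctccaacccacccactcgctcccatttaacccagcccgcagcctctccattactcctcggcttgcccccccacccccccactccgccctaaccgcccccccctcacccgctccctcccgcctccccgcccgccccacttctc
DDIT4: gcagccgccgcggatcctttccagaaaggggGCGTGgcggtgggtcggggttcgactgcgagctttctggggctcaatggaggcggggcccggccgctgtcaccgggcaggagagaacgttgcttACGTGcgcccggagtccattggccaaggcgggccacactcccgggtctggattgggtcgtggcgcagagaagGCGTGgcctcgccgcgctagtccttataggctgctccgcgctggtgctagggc
P4HA1: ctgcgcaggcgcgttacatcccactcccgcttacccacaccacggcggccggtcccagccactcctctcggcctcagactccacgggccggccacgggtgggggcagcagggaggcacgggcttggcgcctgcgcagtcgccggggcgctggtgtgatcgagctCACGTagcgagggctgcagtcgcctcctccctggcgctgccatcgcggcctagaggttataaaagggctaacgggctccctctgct
ERO1A: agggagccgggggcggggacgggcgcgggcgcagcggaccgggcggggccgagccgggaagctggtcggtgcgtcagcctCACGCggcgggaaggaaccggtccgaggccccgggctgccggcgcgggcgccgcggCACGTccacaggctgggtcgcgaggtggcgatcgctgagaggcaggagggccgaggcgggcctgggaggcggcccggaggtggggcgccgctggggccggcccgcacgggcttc
PPFIA4: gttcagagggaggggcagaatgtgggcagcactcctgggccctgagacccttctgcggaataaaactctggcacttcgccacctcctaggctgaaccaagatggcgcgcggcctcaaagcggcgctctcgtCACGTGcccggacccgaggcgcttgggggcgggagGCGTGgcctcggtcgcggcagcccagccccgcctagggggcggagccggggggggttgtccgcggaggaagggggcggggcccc
KDM3A: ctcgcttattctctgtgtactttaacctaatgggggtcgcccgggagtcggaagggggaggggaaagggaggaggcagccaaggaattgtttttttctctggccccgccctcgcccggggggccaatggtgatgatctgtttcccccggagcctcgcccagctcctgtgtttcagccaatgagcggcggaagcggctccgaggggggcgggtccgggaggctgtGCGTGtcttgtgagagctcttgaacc

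In ANKRD37 the core ACGTG starts 143 bases before the start site and again, within the palindrome CACGTG, at 162 and 161 bases, read once on each strand. BHLHE40 has the same palindrome 245 bases before its start and single cores at 174 and 149. PPFIA4 has the palindrome 119 bases before its start and GCGTG at 84, and KDM3A has GCGTG at 26. CACGTG is also the E-box that BHLHE40 and MAX partners such as MXI1 bind, so the letters alone do not name a factor. Promoters of 30 listed genes were in the RefSeq table, and those of VEGFA, STC1, SLC2A3, NDRG1, BNIP3L, HILPDA and ANKZF1 are not analysed here. Of the 30, 23 (76.7%) held ACGTG or GCGTG on either strand in the 250 bases, against 43.2% of all 35116 promoters of that length. Those 35116 were not matched to the members by base makeup, nor limited to genes that the array reads. ACGTG alone was in 50.0% of the members and 18.5% of all promoters, GCGTG in 56.7% and 32.2%, and CACGTG in 23.3% and 6.34%. Either core was in 7 of the 9 lower genes in the table, both of the higher ones there and 13 of 17 genes within 2-fold. Of the genes with no probe set, CA9 held a core and SLC16A3 did not. The core was thus present in genes of either direction, and SLC2A1 and TMEM45A, both lower in SB-OG, had no match to these letters in this window. A match is a run of letters and not a measured binding site.

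HIF α subunits and their prolyl hydroxylases come first in the pathway. HIF1A, the broadly expressed α subunit, had an intensity of 4968 in SB-OG and 8153 in control-OG, a difference of -0.71 that is within 2-fold. EPAS1, or HIF-2α, is best known in endothelial cells and also drives VEGFA in other lineages. EPAS1 was at 1528 in SB-OG and 3460 in control-OG, 2.26-fold lower. Its other probe set above background gave -0.57, and the sign of the main difference turned with poly-A control scaling. EGLN1, the main oxygen-sensing hydroxylase in most cells, was at 386 in SB-OG and 389 in control-OG, and its other probe sets above background gave 0.56 and 0.17. EGLN3, a hydroxylase that HIF itself induces, was at 128 in SB-OG and 139 in control-OG, while a second probe set gave 178 in SB-OG and 95.7 in control-OG. EGLN3 therefore has no settled direction here, and the hydroxylase mRNAs as a pair were within 2-fold.

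Among secreted factors the genes divided. VEGFA, the growth factor that draws blood vessels toward hypoxic tissue, was at 426 in SB-OG and 1432 in control-OG, 3.36-fold lower. All 4 VEGFA probe sets were above background on both arrays and lower in SB-OG, with differences between -1.75 and -1.05. STC1 and STC2 encode stanniocalcins, secreted glycoproteins linked to calcium and phosphate handling, and both are HIF targets. STC1 was at 203 in SB-OG and 84.9 in control-OG, 2.39-fold higher, and its other probe sets gave 0.85 and 0.55. STC2 was at 818 in SB-OG and 1592 in control-OG, a difference of -0.96 that lies just within 2-fold, with -0.82 by its second probe set. The stanniocalcin differences were thus 2.22 apart on the log2 scale. ADM encodes adrenomedullin, a vasodilator peptide. ADM was at 1266 in SB-OG and 773 in control-OG, a difference of 0.71, opposite in sign to VEGFA.

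**Figure D2:**
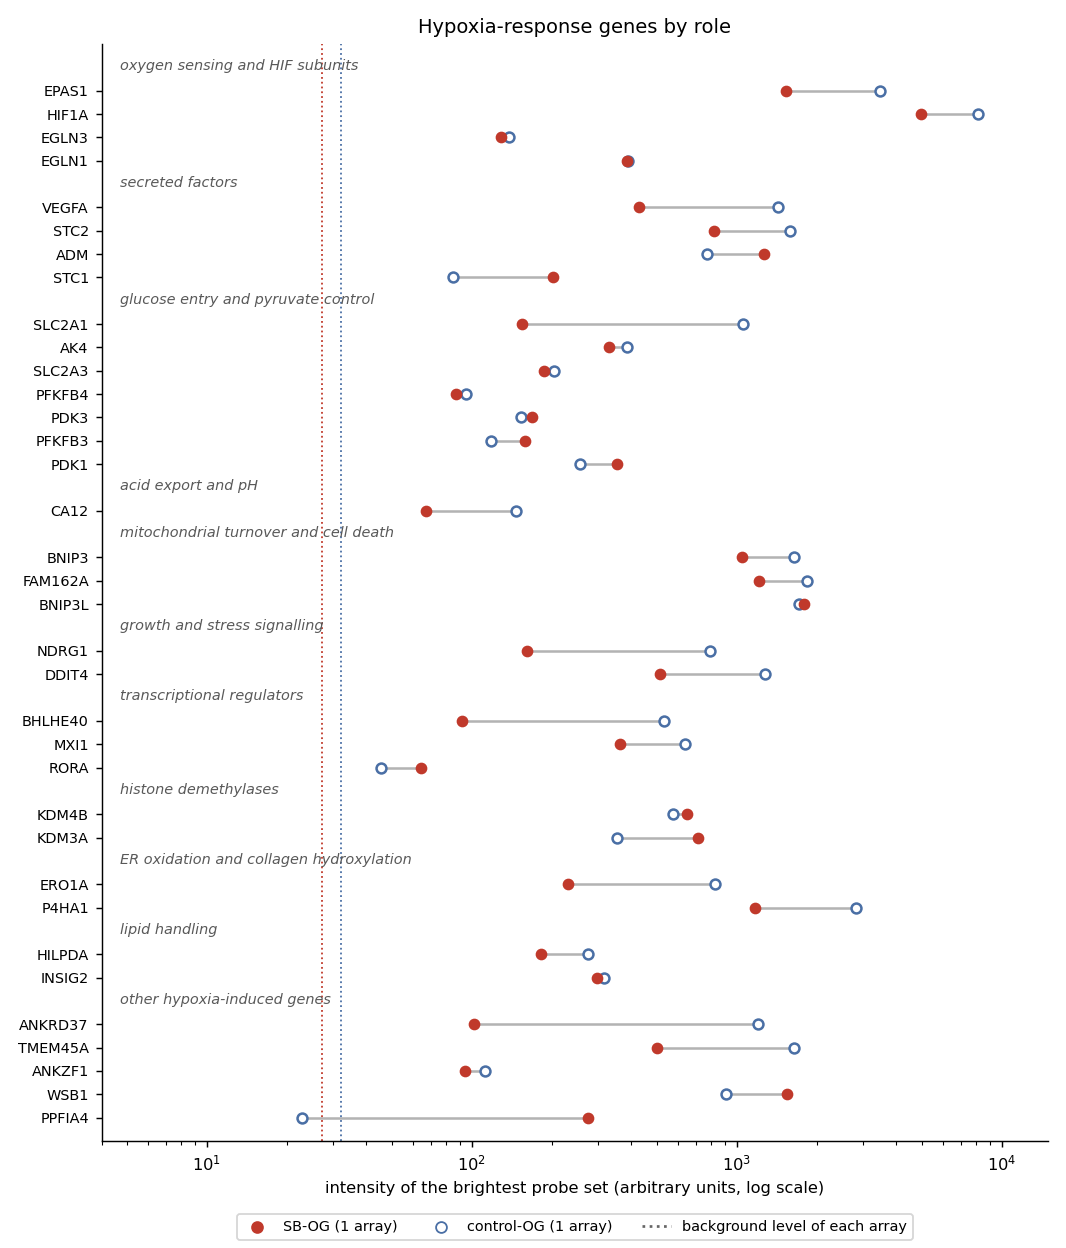
Intensity of the brightest probe set on a log axis for the 35 hypoxia-response genes, grouped by role, with a filled circle for the SB-OG array and an open circle for the control-OG array (1 array each, as deposited). Dotted lines mark the background levels of 27.2 for SB-OG and 32.1 for control-OG, and PPFIA4 is the gene whose control-OG value lies below them. The widest gaps to the left are those of ANKRD37, SLC2A1, BHLHE40 and NDRG1.

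In glucose entry and the control of pyruvate, SLC2A1 stood apart from the other 6 genes. SLC2A1 encodes GLUT1, the basal glucose transporter, and was at 155 in SB-OG and 1058 in control-OG, 6.83-fold lower. Its second probe set was dim, at 8.22 in SB-OG, below background, and 47.9 in control-OG, and gave a bound of -0.82. The difference there was at least this large in size, so the bound does not show a smaller difference than the main value. SLC2A3, the high-affinity transporter GLUT3, was at 186 in SB-OG and 203 in control-OG, with other probe sets at -0.41 and -0.76. The log2 gap between the differences of SLC2A1 and SLC2A3 was -2.65. PFKFB3 and PFKFB4 make and break down fructose 2,6-bisphosphate, an activator of glycolysis. PFKFB3 was at 159 in SB-OG and 118 in control-OG, and PFKFB4 at 87.3 in SB-OG and 94.9 in control-OG.

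PDK1 and PDK3 are kinases that switch off pyruvate dehydrogenase and so keep pyruvate out of mitochondria. PDK1 was at 352 in SB-OG and 255 in control-OG, a difference of 0.47, but its second probe set gave -0.43. PDK3 was at 168 in SB-OG and 153 in control-OG. AK4, a mitochondrial adenylate kinase, was at 329 in SB-OG and 384 in control-OG, and its 4 probe sets gave differences between -0.46 and -0.20. All 6 genes of this role other than SLC2A1 were within 2-fold as deposited. Acid export is represented by CA12 alone, a membrane carbonic anhydrase. CA12 was at 67.1 in SB-OG and 146 in control-OG, 2.18-fold lower, with other probe sets above background on both arrays at -1.12 and -1.09. A CA12 probe set above background on control-OG only gave a bound of -1.22, and 3 were below background on both arrays. CA12 came within 2-fold with hybridisation control scaling, at -0.65, the 99th percentile background, at -0.93, and the pseudocount, at -0.97. With poly-A control scaling it turned to 0.071.

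Mitochondrial turnover is served by BNIP3 and BNIP3L, outer membrane receptors that mark mitochondria for autophagy. BNIP3 was at 1046 in SB-OG and 1638 in control-OG, a difference of -0.65, and its second probe set gave -1.27. BNIP3L was at 1796 in SB-OG and 1715 in control-OG, with -0.15 by its second probe set. FAM162A, a mitochondrial protein linked to cell death in hypoxia, was at 1213 in SB-OG and 1838 in control-OG. Its probe sets disagreed. Of the 4 above background, 3 gave -0.60 to -0.21 and carry a suffix for possible cross-hybridisation, and the remaining one gave 1.21, at 98.0 in SB-OG and 42.4 in control-OG. Such suffixes also mark the brightest probe sets of other members, among them SLC2A1, BHLHE40, NDRG1 and PPFIA4, and all 4 probe sets of VEGFA. None of BNIP3, BNIP3L and FAM162A was 2-fold apart by its brightest probe set.

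Growth and stress signals are carried by DDIT4 and NDRG1, and both were lower in SB-OG. DDIT4 encodes REDD1, which restrains the mTORC1 kinase when oxygen or nutrients are short. DDIT4 was at 515 in SB-OG and 1277 in control-OG, 2.48-fold lower, but within 2-fold with hybridisation control scaling, at -0.84, and poly-A control scaling, at -0.12. NDRG1, a differentiation and stress gene long used as a hypoxia marker, was at 161 in SB-OG and 791 in control-OG, 4.91-fold lower. Each had a single probe set, so no second reading is available.

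**Figure D3:**
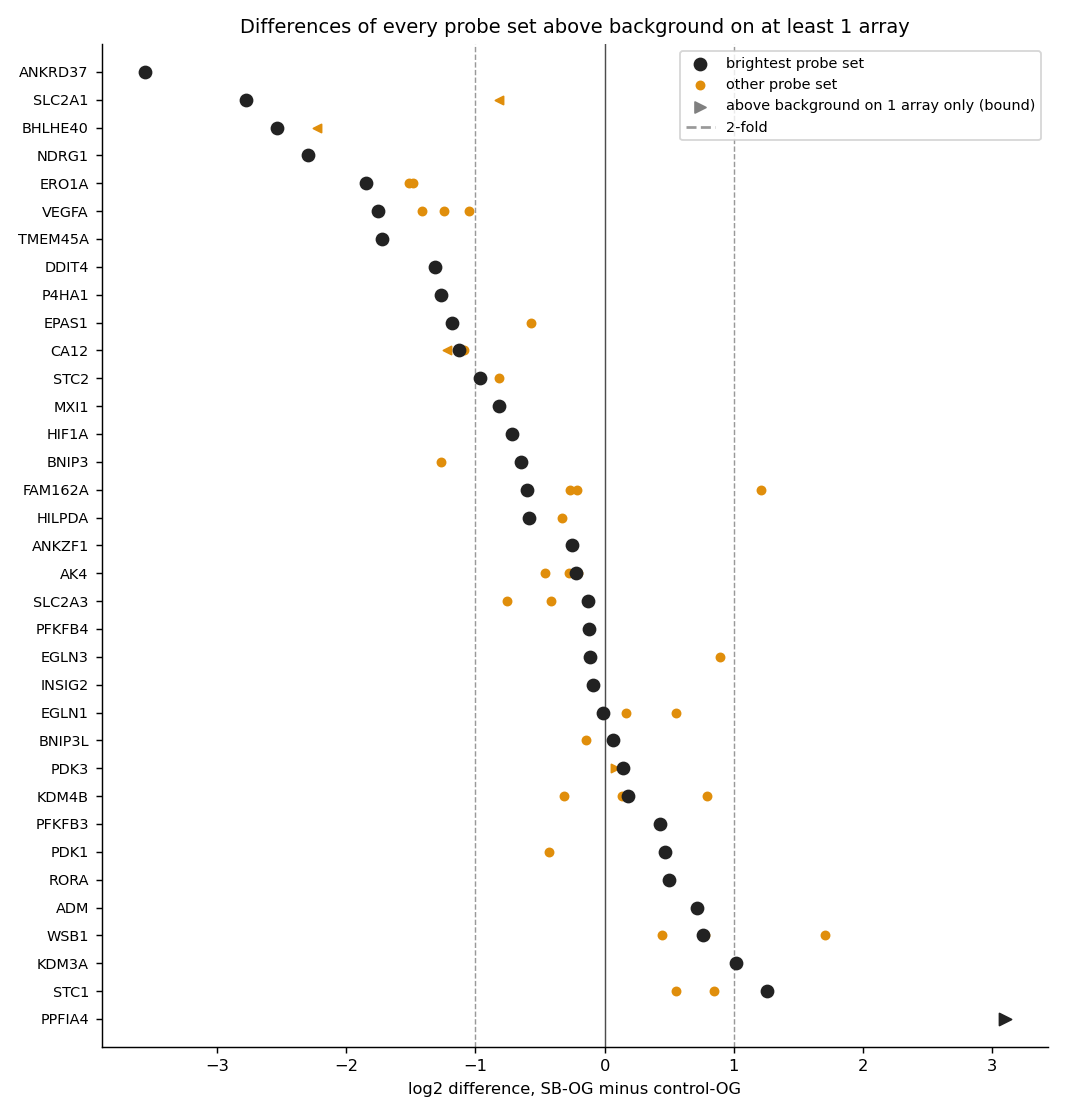
Log2 differences, SB-OG minus control-OG, of every probe set above background on at least 1 array for the 35 genes, as deposited. Large black symbols are the brightest probe set and small orange ones the others, triangles are bounds for probe sets above background on 1 array only, and dashed lines mark 2-fold. VEGFA, ERO1A and CA12 have all their points on the lower side, STC1 and WSB1 on the higher side, and FAM162A, EGLN3, PDK1 and KDM4B on both.

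Of the transcriptional regulators, BHLHE40, MXI1 and RORA, the first differed most. BHLHE40 encodes the repressor DEC1, a target of HIF and also of TGF-β. BHLHE40 was at 92.0 in SB-OG and 532 in control-OG, 5.78-fold lower. A second probe set was at 17.7 in SB-OG, below background, and at 128 in control-OG, a bound of -2.23. MXI1, which competes with MYC for its partner MAX, was at 363 in SB-OG and 640 in control-OG, a difference of -0.82. RORA, a nuclear receptor of the circadian clock, was at 64.1 in SB-OG and 45.5 in control-OG. Its 7 other probe sets were below background on both arrays.

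KDM3A and KDM4B are histone H3 lysine 9 demethylases that need oxygen for their reaction and are induced when it is short. KDM3A was at 711 in SB-OG and 351 in control-OG, 2.02-fold higher and so just past 2-fold. KDM4B was at 651 in SB-OG and 573 in control-OG, and its other probe sets above background on both arrays ran from -0.31 to 0.79. A second probe set for each of KDM3A, P4HA1 and ANKRD37 was below background on both arrays, as was another for EPAS1. KDM3A came just within 2-fold with quantile normalization, at 0.99, and with a pseudocount of 16, at 0.98.

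Both genes of protein oxidation and collagen hydroxylation were lower in SB-OG. ERO1A encodes the oxidase that forms disulphide bonds in the endoplasmic reticulum. ERO1A was at 230.4 in SB-OG and 827 in control-OG, 3.59-fold lower, and its other probe sets gave -1.52 and -1.48. P4HA1 encodes the catalytic subunit of collagen prolyl 4-hydroxylase, which stabilises the collagen triple helix. P4HA1 was at 1172 in SB-OG and 2816 in control-OG, 2.40-fold lower. With hybridisation control scaling P4HA1 came within 2-fold while ERO1A stayed past it. With poly-A control scaling both were within 2-fold, P4HA1 at -0.069 and ERO1A at -0.65. Fibroblast and stromal markers moved the same way, as given above, and their part in these differences was not tested.

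Lipid handling is represented by HILPDA, which inhibits the lipase of lipid droplets, and INSIG2, which holds back sterol synthesis. HILPDA was at 183 in SB-OG and 275 in control-OG, with -0.33 by its second probe set. INSIG2 was at 295 in SB-OG and 315 in control-OG. Neither was 2-fold apart.

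Of the remaining genes, ANKRD37, a small ankyrin repeat protein and HIF-1 target, had the largest difference of all members that were above background on both arrays. ANKRD37 was at 102 in SB-OG and 1202 in control-OG, 11.8-fold lower, and 1.07% of all genes above background had a lower difference. TMEM45A, a transmembrane protein induced by hypoxia in epithelial and tumour cells, was at 500.3 in SB-OG and 1649 in control-OG, 3.30-fold lower. WSB1, a ubiquitin ligase subunit, was at 1542 in SB-OG and 911 in control-OG, a difference of 0.76. All 4 WSB1 probe sets above background were higher in SB-OG, from 0.45 to 1.71. ANKZF1, a factor in ribosome quality control, was at 94.3 in SB-OG and 113 in control-OG.

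PPFIA4 encodes liprin-α4, a scaffold protein that was described as a hypoxia-induced gene and is also known from muscle and nerve. PPFIA4 was at 275 in SB-OG and 22.9 in control-OG, which is below background, so it was at least 8.58-fold higher. It had the largest positive difference of the 35 and, like the skeletal muscle markers counted above, was higher in SB-OG. The part of muscle cells in the PPFIA4 difference was not tested.

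The rest of the pathway was read in lists of other genes, chosen with earlier results of these data known. HIF pathway machinery covered partners, hydroxylases, the VHL ligase and coactivators, and 13 of 16 genes were above background. By its brightest probe set none of the 13 was 2-fold apart as deposited, where 12.4% of all genes were higher and 13.0% lower. The median was 0.11. Other probe sets gave up to 1.17 for ELOC and 1.05 for SIAH1. Hybridisation control scaling put 2 of the 13 genes 2-fold higher, where 24.1% of all genes were. Poly-A control scaling put 11 of the 13 2-fold higher, where 59.7% of all genes were. With probe sets free of a suffix, 1 of 9 genes was higher and none lower. ARNT, the partner of both α subunits, was at 204.5 in SB-OG and 189 in control-OG. VHL, which recognises the hydroxylated α subunit, was at 54.7 in SB-OG and 52.7 in control-OG. HIF1AN, the asparaginyl hydroxylase that blocks HIF coactivators, was at 412 in SB-OG and 231 in control-OG, a difference of 0.83, and its probe sets ran from 0.59 to 1.29. ARNT probe sets ran from -1.09 to 0.11. ARNT, VHL and HIF1AN were picked here for their roles. HIF3A, EGLN2 and CITED4 were below background on both arrays.

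A second list held 31 further hypoxia-induced genes, of which 27 were above background. It too was chosen with earlier results of these data known, so its counts are no independent support. As deposited, 17 of the 27 were lower in SB-OG by 2-fold or more and 3 higher, beside 13.0% and 12.4% of all genes, with a median of -1.42. With poly-A control scaling the counts were 4 lower and 5 higher, beside 3.52% and 59.7% of all genes. PLOD2, a lysyl hydroxylase that sets the type of collagen cross-link, was at 172 in SB-OG and 7091 in control-OG, 41.2-fold lower. LOX, which starts those cross-links, was 22.8-fold lower and FLT1, a receptor for VEGFA, 12.7-fold lower. PLIN2, a coat protein of lipid droplets, was at 201 in SB-OG and 1600 in control-OG, 7.94-fold lower. HMOX1, the inducible haem oxygenase, was 4.41-fold lower and ZNF395, a transcription factor, 4.39-fold lower. The 3 higher genes were GYS1, the muscle glycogen synthase, 3.45-fold, NRN1, a neurite growth protein, at least 3.33-fold, and the chemokine receptor gene CXCR4, at least 2.09-fold.

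All 16 glycolytic enzyme genes were above background, and as deposited 5 were lower in SB-OG by 2-fold or more and none higher, beside 13.0% and 12.4% of all genes. The count of lower genes was 4 with quantile normalization, lowess, centring, the 99th percentile background or the pseudocount. Under these, 11.2% to 14.1% of all genes were lower. LDHA, which turns pyruvate to lactate, was at 1392 in SB-OG and 9938 in control-OG, 7.14-fold lower. ALDOC was 4.99-fold lower, ENO2 2.42-fold and HK2 2.31-fold, and ENO1 2.02-fold. HK2 and ENO1 had other probe sets that gave up to 0.44 for HK2 and 0.015 for ENO1. PGK1, a classical HIF target, was at 4047 in SB-OG and 5945 in control-OG, within 2-fold, and was picked here for that role. Hybridisation control scaling gave 1 higher and 2 lower, beside 24.1% and 7.25% of all genes. With poly-A control scaling 5 of these 16 genes were 2-fold higher and 2 lower, beside 59.7% and 3.52% of all genes.

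**Figure D4:**
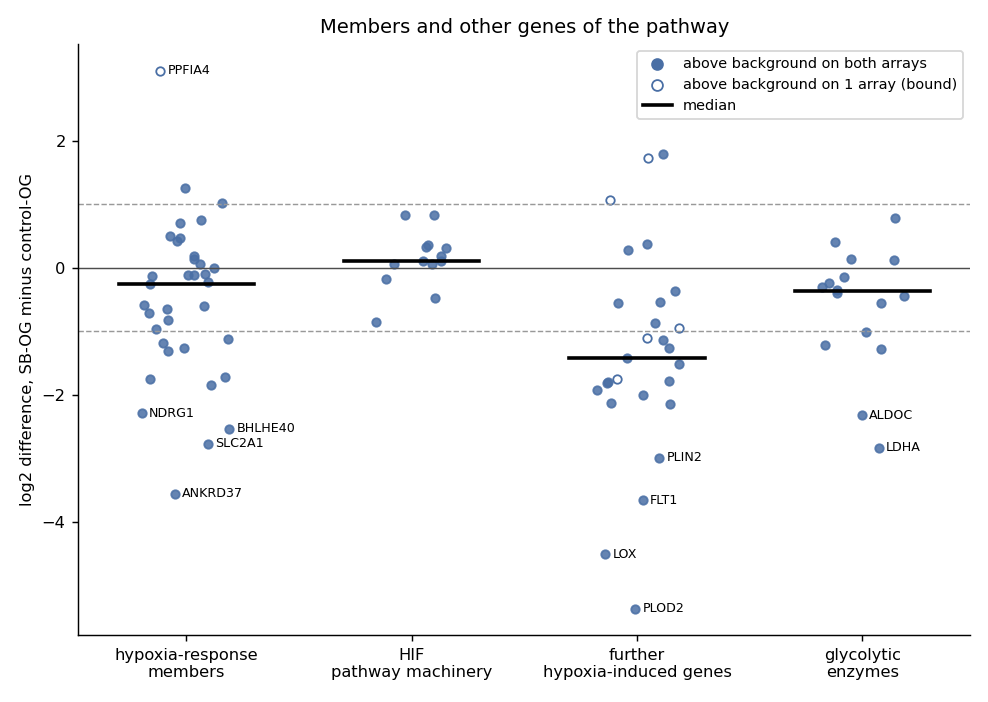
Log2 differences, SB-OG minus control-OG, of 35 hypoxia-response members, 13 genes of HIF pathway machinery, 27 further hypoxia-induced genes and 16 glycolytic enzyme genes above background, as deposited. Filled points were above background on both arrays and open ones on 1 array, bars are medians (-0.26, 0.11, -1.42 and -0.37), and dashed lines mark 2-fold. Poly-A control scaling moves every point up by 1.20, which turns the medians of the members and the glycolytic genes positive.

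The 14 genes 2-fold apart as deposited were followed through each alternative that gave them a value. ANKRD37 ran from -3.60 to -1.90 and SLC2A1 from -2.81 to -0.82. The SLC2A1 value nearest 0 is a bound from its dim specific probe set, so it does not show SLC2A1 to be within 2-fold. BHLHE40 ran from -2.61 to -1.34, NDRG1 from -2.35 to -1.10, ERO1A from -1.89 to -0.65 and VEGFA from -1.75 to -0.56. PPFIA4 stayed between 2.40 and 4.30, and STC1 between 0.88 and 2.45. Of the lower genes, EPAS1, CA12, P4HA1, DDIT4 and TMEM45A came nearest 0, all with poly-A control scaling. EPAS1 ran from -1.18 to 0.016, CA12 from -1.25 to 0.071 and P4HA1 from -1.26 to -0.069. DDIT4 ran from -1.31 to -0.12 and TMEM45A from -1.72 to -0.53. KDM3A ran from 0.39 to 2.21, where the low end, like the -1.90 of ANKRD37, averages in a probe set below background on both arrays. Under every alternative that gave them a value, 4 genes stayed past 2-fold in the same direction, ANKRD37, BHLHE40, NDRG1 and PPFIA4. Of these only ANKRD37 had a probe set free of a suffix, so that alternative did not read the others. NDRG1 and PPFIA4 each had 1 probe set, so means over probe sets could not move them.

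**Figure D5:**
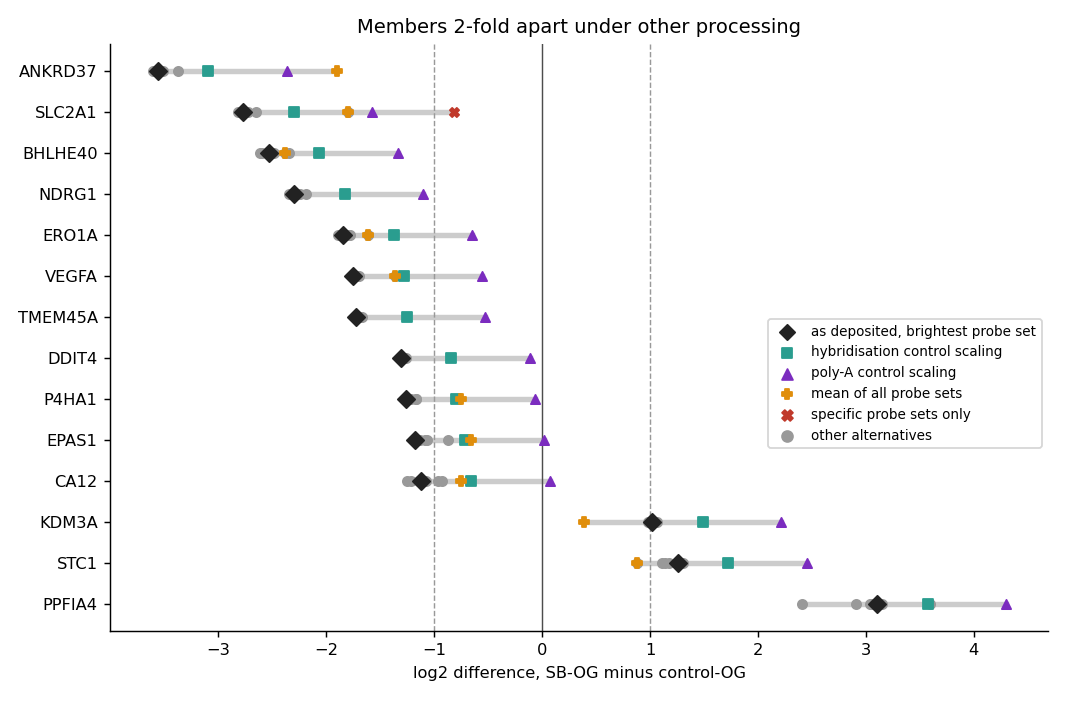
Log2 differences, SB-OG minus control-OG, of the 14 members 2-fold apart, with a black diamond for the value as deposited, other symbols for alternative processing and a grey bar from the lowest to the highest. Dashed lines mark 2-fold. Poly-A control scaling (triangles) brings EPAS1 and CA12 to the positive side of 0. The 4 genes ANKRD37, BHLHE40, NDRG1 and PPFIA4 stay outside the dashed lines under each alternative that gave them a value.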

How the data were processed

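RNA of HUES9 outgrowths was read on 1 Affymetrix array per condition (SB-OG and control-OG). RNA was isolated by column kit and labelled with biotin, per the labels' protocols. The authors deposited 1 linear intensity per probe set, 54675 on each array. No source used here names the summarising software, and no detection calls were used. The mean after trimming 2% from each end was 150.0 on either array, as scaling to a common level would give, so total RNA per cell is not visible. Median intensity was 21.8 on SB-OG and 22.6 on control-OG. The 3′ to 5′ signal ratio was 0.958 on SB-OG and 0.995 on control-OG for GAPDH, and 1.55 on SB-OG and 1.65 on control-OG for ACTB.

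Values were used as deposited. Gene names came from GEO's platform annotation, with symbols updated by gene ID for 19734 of 19775 genes, and 41091 probe sets with 1 gene were used. A gene took its probe set of highest mean log2 intensity. For background, the 95th percentile was taken over 217 probe sets of 176 olfactory and taste receptor, keratin-associated, defensin and late cornified envelope genes. Values below it were raised to it, so a gene above background on 1 array has a lower bound, and genes below it on both were left out. Genes were counted at 2-fold. No test was possible.

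Alternatives were quantile normalization, lowess with a span of 0.4, median centring, scaling on 18 hybridisation control probe sets, the mean of all probe sets, probe sets with no _s, _x or _a suffix, no floor, a 99th percentile background, a pseudocount of 16 and a 3-fold threshold. Scaling on 24 poly-A control probe sets and the mean of probe sets above background were added after seeing the data. All 35 members are named. Members at least 2-fold apart were described with all their probe sets, and of the other lists up to 6 genes with the largest difference. The members and all lists were chosen with earlier results of these data known. The functions were checked on simulated data. Promoters are from RefSeq, GRCh38.p14. Python 3.11.15, numpy 2.4.6, pandas 2.3.3, statsmodels 0.14.6 and matplotlib 3.10.9 were used.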

Additional observations from a re-analysis of the deposited data

How the results depend on the processing

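As deposited, 11 members were lower in SB-OG by 2-fold or more and 3 were higher, beside 13.0% and 12.4% of all genes. The median was -0.26. With hybridisation control scaling 7 were lower and 5 higher, with a median of 0.21, beside 7.25% and 24.1% of all genes. With poly-A control scaling, chosen after seeing the data, 4 were lower and 16 higher, with a median of 0.94, beside 3.52% and 59.7% of all genes, whose median was 1.17. There EPAS1 was at 0.016 and CA12 at 0.071. These scalings shift every gene by construction. With the mean of all probe sets 1 gene was higher and 8 lower, but this takes in probe sets below background on both arrays, which are fixed at -0.24 and pull values toward it. With the mean of those above background, also chosen after seeing the data, 2 were higher and 10 lower. With probe sets free of a suffix, which 22 members had above background, 5 were lower and 1, FAM162A, was higher. This alternative gave no value for PPFIA4, STC1 and KDM3A, the genes higher as deposited. Nor did it give one for VEGFA, DDIT4, NDRG1, BHLHE40 and P4HA1, which were lower as deposited. At 3-fold, 7 were lower and 1 was higher. Under quantile normalization, lowess, centring, no floor, the 99th percentile background and the pseudocount, 10 or 11 were lower and 2 or 3 higher, and no gene past 2-fold changed sign in these. No paired analysis was possible because each condition has 1 array. Dim probe sets limit SLC2A1 (second probe set), RORA, CA12 and PPFIA4, whose values lie close to background on at least 1 array.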

Other observations

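Enzymes that hydroxylate or cross-link collagen occur both among the hypoxia-response genes and in the list of further hypoxia-induced genes. They were set side by side after their values were seen, so the grouping has no test. Of the 6 (P4HA1, P4HA2, PLOD1, PLOD2, LOX and LOXL2), 5 were lower in SB-OG by 2-fold or more as deposited and none was higher, beside 13.0% of all genes lower. With hybridisation or poly-A control scaling 2 of the 6, PLOD2 and LOX, were past 2-fold. Of all genes, 7.25% and 3.52% were lower under these scalings. P4HA2, a second prolyl hydroxylase subunit, was at 1758 in SB-OG and 4238 in control-OG, 2.41-fold lower. PLOD1, a lysyl hydroxylase, was at 454 in SB-OG and 1215 in control-OG, 2.67-fold lower. LOXL2 was at 2278 in SB-OG and 4145 in control-OG, a difference of -0.86. The collagen gene COL1A1, from the stromal list, was at 7025 in SB-OG and 18867 in control-OG.

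Poly-A control transcripts read lower on SB-OG than on control-OG by a median log2 difference of 1.20 in size over 24 probe sets, and hybridisation controls by 0.47 over 18. No source used here states whether equal amounts were added to both samples.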
